A study of Mus musculus with 4 samples.

Results

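The Serpin superfamily was examined in neonatal mouse livers (postnatal day 1), and its members were all genes whose annotated symbol starts with Serpin. 49 such genes had a named probe on the array, of 16593 genes named in all, and 60 probes carried their symbols. Gene expression was measured on 4 Illumina MouseRef-8 v2.0 bead arrays, 2 for DKO livers (genotype label Lats1-/-;Lats2f/fl;Alb-cre) and 2 for control livers (genotype label wild type). The LATS kinases act in the Hippo pathway, where they keep YAP and TAZ, a pair of transcriptional co-activators, out of the nucleus. All animals were labelled female, were of a mixed B6;129 strain and, per the labels, came out of one set of mothers. In the DKO animals Lats1 was missing from every cell, whereas Lats2 was floxed and removed by a Cre driven by the albumin promoter. That promoter is active in hepatoblasts and hepatocytes, and biliary cells that derive from hepatoblasts would carry the deletion. Blood-forming, endothelial and stromal cells of the liver would keep Lats2. Whether the arrays of a group hold RNA of different animals is not said in the labels. The sex-linked transcripts given below differ between the control arrays, which therefore came from different animals, whereas the DKO arrays may differ for technical reasons alone, and 2 arrays per group limit the precision.

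Serpins share a fold with an exposed loop that a target protease cuts. In the inhibitory members the cut springs the loop into the body of the serpin and traps the protease, which is why 1 serpin molecule is spent for each protease molecule. Clades are lettered by descent. Members of clades A, C, D, F and G are secreted, and hepatocytes release many of them into plasma, where they restrain clotting, fibrinolytic, complement and neutrophil proteases. Clade B members lack a secretion signal, stay inside epithelial and blood cells and guard them against proteases such as cathepsins and granzymes. The single clade H member is a collagen chaperone of the endoplasmic reticulum.

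Per array, between 12514 and 13641 of 25697 probes were detected, that is, had a detection p under 0.05 in the deposited table. A probe was tested if it was detected on at least 2 of the 4 arrays, and a gene was read from its tested probe with the highest mean level. Levels are given as normalized log2 intensity. A change is the DKO mean minus the control mean on that scale, with the standard error (SE) of limma's fit and its p-value adjusted by Benjamini and Hochberg over all tested probes. The targeted gene Lats2 had levels of 6.54 and 6.07 in DKO livers, against 5.92 and 5.47 in control livers, a change of 0.61 (SE 0.37, adjusted p = 0.531), and where its probe lies relative to the deleted part was not checked here. Control replicate 2 stood against its label: the Y-linked Eif2s3y was at 4.76 and 4.94 in DKO livers, against 4.69 and 11.31 in control livers 1 and 2, and Xist, which marks female cells, was at 9.76 and 9.07 in DKO livers, against 9.86 and 5.16 in the control livers. Without that array, 0.895% of all genes were called higher and 0.968% lower, so fewer genes passed with the 3 arrays left, and values without it are given beside the main results. The labelled tissue was borne out by its defining markers, since 10 of 10 hepatocyte markers were detected. Of these, 0 were higher and 2 lower in DKO livers, beside 1.75% and 1.68% of all genes tested. The 2 were Cyp2e1 (-7.34) and Apoc3 (-3.18), and the median change was -0.79 (-0.81 without control replicate 2). The summed intensity of the hepatocyte markers was 222728 and 210637 in DKO livers, against 277149 and 247860 in control livers. Their brightest members, Ahsg, Ttr, Apoa1 and Apoa2, lay on average 0.11, 0.33, 0.38 and 0.41 below the highest value of the array. How large a fall the sum could have registered was not tested. Of 9 biliary epithelial markers 5 were tested, and 3 (Krt7, Krt19 and Cldn4) were higher, with a median change of 4.75 and a summed intensity of 3308 and 10775 in DKO livers, against 245 and 296 in control livers. In whole liver, fewer cells of a type and less RNA per cell cannot be told apart.

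Across the superfamily, 26 of the 49 genes could be tested. Serpinb6a and Serpinb6b, a pair of intracellular clade B serpins, were higher in DKO livers, and no Serpin gene was called lower. These 2 of 26 stand beside 1.75% of all 9502 genes tested that were higher, and the 0 of 26 beside 1.68% that were lower. Counted by probe, 1.63% of all 13654 tested probes were higher and 1.61% lower. By direction alone, 20 of the 26 Serpin genes had a negative change and 6 a positive one, with a median of -0.44, whereas 4717 of all 9502 genes had a negative change and the median over all genes was 0.0046. Both DKO arrays lay below both control arrays for 14 of the 26 Serpin genes, against 22.8% of all genes, and above both for 5, against 22.7% of all genes. At an unadjusted p under 0.05, 7 Serpin genes were lower, against 8.03% of all genes, and 3 were higher, against 8.05%. The smallest change that passed the adjusted test among all genes was 1.68 in size. With control replicate 2 left out, 1 Serpin gene was higher (Serpinb6a) and 1 was lower (Serpina3n). With DKO replicate 1 left out, 4 were lower (Serpina11, Serpina3n, Serpina4-ps1 and Serpina5), beside 2.65% of all genes, more than with all arrays.

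**Figure D1:**
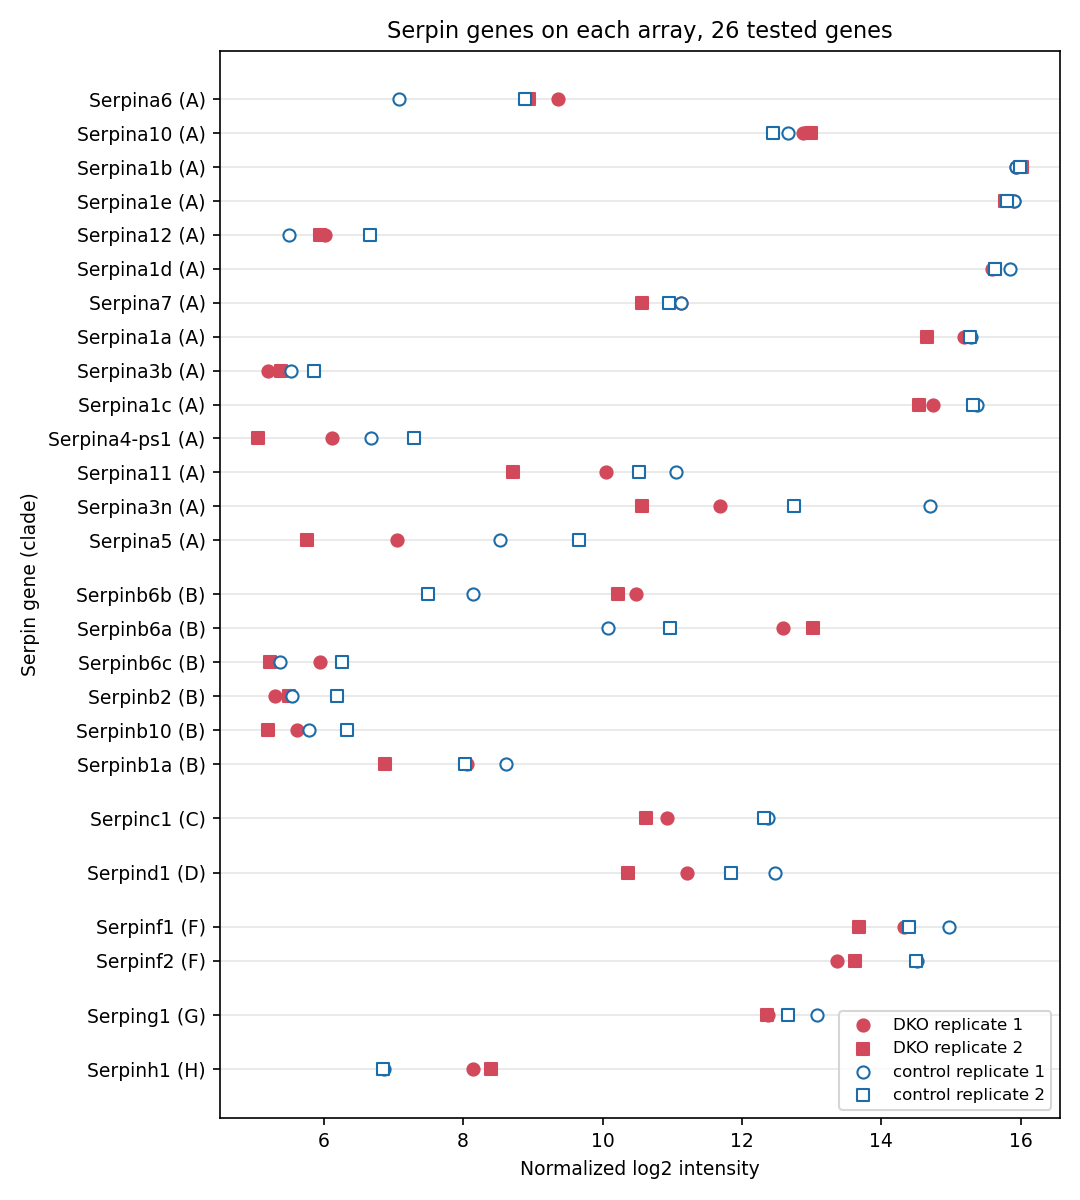
Normalized log2 intensity (x axis) of the 26 tested Serpin genes (y axis, clade in parentheses) on each array; filled red symbols are the 2 DKO arrays and open blue symbols the 2 control arrays. For Serpinb6a and Serpinb6b both DKO arrays lie to the right of both control arrays, for 14 genes both lie to the left, and Serpina1b, Serpina1d and Serpina1e sit at the right edge near the array maximum of 16.01.

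The 21 genes of clades A, C, D, F and G included 19 tested genes. None was called at the adjusted threshold, and 7 were lower at an unadjusted p under 0.05. Their median change was -0.50, with 16 negative and 3 positive changes, and 12 had both DKO arrays below both controls, 2 had them above and 5 overlapped. Without control replicate 2 the median was -0.70. The count takes Serpina1a to Serpina1e as 5 genes, by name. Clade B held more genes, 25, but 6 were tested, with 2 called higher, 4 negative changes and a median of -0.35, which turned to 0.039 without control replicate 2. The range within clade B ran from -0.86 to 2.54, so its median describes neither the pair that was higher nor the dimmer remainder. Most tested genes had negative changes in both sets of clades, and a smaller part of clade B reached the detection limit. The differences between clades were not tested.

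**Figure D2:**
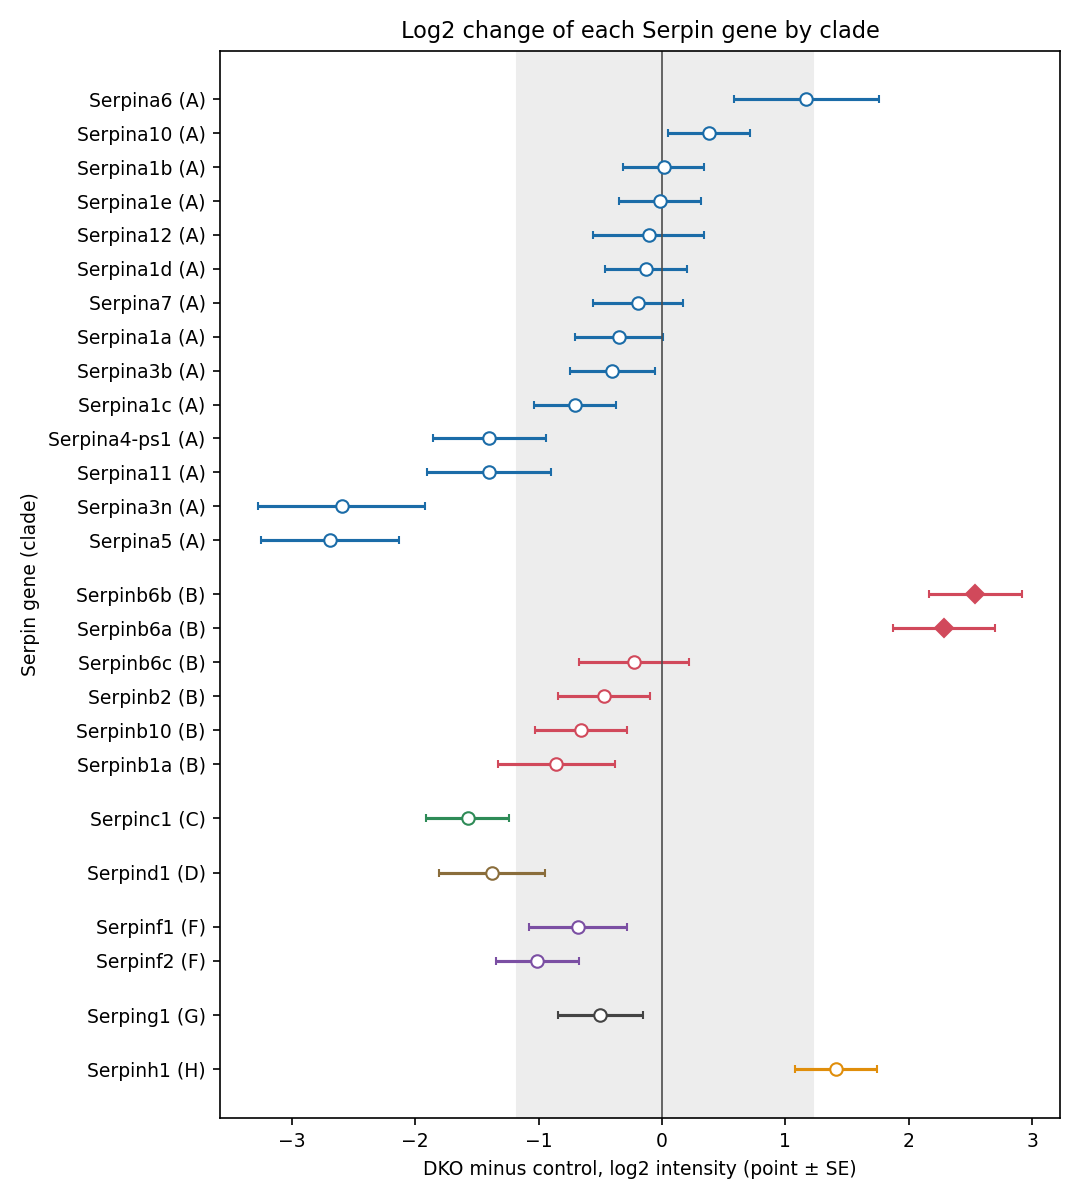
Change of each tested Serpin gene, DKO minus control in log2 intensity (x axis), with bars of 1 SE, grouped by clade (y axis, colour); filled diamonds passed the adjusted threshold and open circles did not, and the grey band spans the 5th to 95th percentile of all 9502 genes (-1.18 to 1.22). The 2 diamonds are Serpinb6b and Serpinb6a at the right, while Serpina5, Serpina3n, Serpina4-ps1, Serpina11, Serpinc1 and Serpind1 lie left of the band.

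Among the secreted inhibitors of clotting proteases, antithrombin, heparin cofactor II and protein C inhibitor had negative changes of more than 1 on the log2 scale. Antithrombin (Serpinc1), the main plasma inhibitor of thrombin and factor Xa, was at 10.92 and 10.62 in DKO livers, against 12.38 and 12.31 in control livers, on its brighter probe. Both DKO values lay below both controls by more than the spread within either pair. The change was -1.57 (SE 0.34), which just missed the threshold (limma, adjusted p = 0.0578), and a second Serpinc1 probe, at 7.61 and 7.33 in DKO livers and 10.13 and 9.15 in control livers, passed it with a change of -2.17 (SE 0.42, adjusted p = 0.0423). Antithrombin thus lay on either side of the threshold depending on the probe and on the processing, with the same direction on both probes. Without background correction the brighter probe passed in limma (adjusted p = 0.0487) and the second did not (adjusted p = 0.122). The authors' normalized values gave the same split (adjusted p = 0.0451 and 0.109). Without control replicate 2, which leaves a single control array, the change was -1.61 on the brighter probe and -2.66 on the second. Heparin cofactor II (Serpind1), an inhibitor of thrombin that dermatan sulfate activates, was at 11.21 and 10.36 in DKO livers, against 12.48 and 11.85 in control livers. The groups did not overlap, and the change of -1.38 (SE 0.43) did not pass (adjusted p = 0.173), nor did it without control replicate 2 (-1.69, adjusted p = 0.227).

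Protein C inhibitor (Serpina5), which in mice is best known from the reproductive tract, had the largest negative change of the 26 genes. Its levels were 7.05 and 5.76 in DKO livers, against 8.53 and 9.67 in control livers. The pairs were well separated but each spread widely, and the change of -2.69 (SE 0.56) narrowly missed the threshold (adjusted p = 0.0534), and passed with DKO replicate 1 left out (-3.34, adjusted p = 0.00106). It missed the threshold without DKO replicate 2 (-2.04, adjusted p = 0.0744), without control replicate 1 (-3.26, adjusted p = 0.081) and without control replicate 2 (-2.12, adjusted p = 0.203). Its second probe was detected on 1 control array and on no DKO array and was not tested. Serpina10, which with protein Z restrains factor Xa, went the other way, at 12.87 and 12.99 in DKO livers and 12.66 and 12.44 in control livers. Its change of 0.38 (SE 0.33, adjusted p = 0.693) was about as large as its error. The clotting inhibitors thus had changes of both signs.

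The proteases these inhibitors act on were lower in part. Of 8 coagulation proteases (F2, F7, F9, F10, F11, F12, Klkb1 and Proc), 8 were tested, 4 were lower, 0 were higher and all had negative changes, with a median of -1.56. Without control replicate 2, F7 and F9 kept their calls (adjusted p = 0.0185 and 0.0334), and F10 and Klkb1 did not (adjusted p = 0.13 and 0.0831). Factor F9, the protease lacking in haemophilia B, was at 9.38 and 8.84 in DKO livers, against 12.22 and 11.65 in control livers (change -2.82, adjusted p = 0.0124). Factor F7, which starts clotting with tissue factor, was detected on neither DKO array, at 5.10 and 5.08, against 8.59 and 8.57 in control livers, so it was at least 8.21-fold lower (adjusted p = 0.00344). "At least" here sets the control mean against the lowest level of a detected probe on the DKO arrays. Prothrombin (F2), the precursor of the protease that antithrombin traps, was at 13.95 and 13.52 in DKO livers, against 14.50 and 14.12 in control livers (change -0.57, adjusted p = 0.55). Of 13 tested secreted liver proteins outside both families, 1 (Apoc3) was lower and 0 were higher, with a median of -0.38. Several of these probes lay close to the highest value of the array. The mean distance below it was 0.053 for Trf, 0.11 for Ahsg, 0.26 for Fga and 0.33 for Ttr, against 7.05 for Alb and 7.72 for Apoc3. How large a fall the brightest probes could have registered was not tested. The difference between these lists was not tested.

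Inhibitors of the fibrinolytic and complement systems had negative changes, none past the threshold. The plasmin inhibitor alpha-2-antiplasmin (Serpinf2) was at 13.36 and 13.63 in DKO livers, against 14.52 and 14.49 in control livers. All 3 of its probes had negative changes, of -1.01, -1.25 and -0.90, and none passed (adjusted p = 0.2, 0.135 and 0.252). The first was at -1.02 (adjusted p = 0.379) without control replicate 2. Plasminogen itself (Plg) was at 13.12 and 13.30 in DKO livers, against 14.67 and 14.70 in control livers (change -1.48, adjusted p = 0.0673). Plasminogen is the precursor of plasmin, the protease that Serpinf2 traps, and both genes had non-overlapping groups in the same direction, neither past the threshold. Pigment epithelium-derived factor (Serpinf1), a non-inhibitory serpin that acts on blood vessels, was at 14.33 and 13.68 in DKO livers, against 14.97 and 14.40 in control livers (change -0.68, SE 0.40, adjusted p = 0.51). C1 inhibitor (Serping1), which holds back the first complement proteases and plasma kallikrein, was at 12.38 and 12.36 in DKO livers, against 13.07 and 12.67 in control livers (change -0.50, SE 0.34, adjusted p = 0.592). The 95% interval for C1 inhibitor ran from -1.31 to 0.31, which includes 0.

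In the plasminogen system, 6 of 7 listed genes were tested and 1 was called. Plaur, the cell-surface receptor that concentrates urokinase, was at 9.12 and 9.15 in DKO livers, against 6.11 and 7.04 in control livers, a rise of 2.56 (SE 0.41, adjusted p = 0.0196) that was also called without control replicate 2 (3.02, adjusted p = 0.0299). Urokinase (Plau) was at 5.93 and 8.96 in DKO livers and 5.68 and 6.70 in control livers, so its groups overlapped (adjusted p = 0.613). The receptor was higher on both DKO arrays, whereas DKO replicate 1 of its ligand lay within the control range. Among complement proteases 4 of 7 were tested, 0 were called in either direction by limma, and their median was -0.46.

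Alpha-1-antitrypsin, the chief plasma inhibitor of neutrophil elastase, is encoded in the mouse by several near-identical genes. Serpina1a to Serpina1e had 7 tested probes, whose changes ran from -0.71 to 0.014 (SE 0.33 to 0.36, lowest adjusted p = 0.388). Serpina1c, with the most negative change, was at 14.74 and 14.54 in DKO livers, against 15.37 and 15.32 in control livers. Serpina1b was at 15.94 and 16.01 in DKO livers, against 15.94 and 15.98 in control livers, a difference smaller than the spread within either pair. The 95% intervals ran from -1.49 to 0.073 for Serpina1c and from -0.76 to 0.79 for Serpina1b. All 7 probes ranked between 1st and 108th of the 25697 probes in raw intensity on every array, and their means lay 0.045 to 1.12 below the highest value of the array. How large a difference these probes could have registered so close to the top of the range was not tested. Without these 5 genes, an alternative chosen after seeing the data, the median change of the hepatocyte clades was -0.85. Serpina1f, the sixth paralog measured, was detected on no array.

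Serpina1a to Serpina1e also share their start regions, which is why those are shown. The promoter windows of Serpina1a to Serpina1d, 250 bases before to 50 after the RefSeq start (assembly GRCm38.p6), were 85.2% to 91.4% identical to each other in a pairwise alignment, those with Serpina1e 63.5% to 69.3%, and those with Serpina1f 45.5% to 48.3%. Each line gives 80 bases of the minus strand, with a core motif of the hepatocyte factor HNF1 (GTTAAT) in capitals, which lies between 16 and 78 bases before the annotated start.
Serpina1a, chr12:103863601-103863680: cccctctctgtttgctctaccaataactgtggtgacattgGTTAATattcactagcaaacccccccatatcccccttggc
Serpina1b, chr12:103738176-103738255: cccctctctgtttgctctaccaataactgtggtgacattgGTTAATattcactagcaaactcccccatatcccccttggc
Serpina1c, chr12:103904938-103905017: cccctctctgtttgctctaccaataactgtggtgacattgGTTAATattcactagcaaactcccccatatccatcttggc
Serpina1d, chr12:103773610-103773689: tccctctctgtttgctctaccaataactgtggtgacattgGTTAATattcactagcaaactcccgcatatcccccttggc
Serpina1e, chr12:103956936-103957015: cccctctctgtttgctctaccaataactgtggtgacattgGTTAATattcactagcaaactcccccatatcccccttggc
The 5 stretches differ from the most common base at 0 to 2 positions each, and all hold the motif. GTTAAT or its reverse complement ATTAAC was found in 12 of 63 Serpin windows (19.0%), among them these 5, and in 7.1% of all 32851 windows. The 5 Serpina1 windows share this stretch, and overlapping windows of Serpina7 are among the 12, so the 12 are not separate sequences. Because the Serpina1 genes are this alike, a probe named for one may also bind transcripts of another. The probe sequences were not used here, so the 7 probes may not be 5 separate measurements, although the counts over the superfamily keep them as 5 genes.

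The antichymotrypsin-like Serpina3 genes form the other expanded mouse family, and of them Serpina3b and Serpina3n had a named probe. Serpina3n, an acute-phase serpin that inhibits granzyme B and other leukocyte proteases, was at 11.68 and 10.56 in DKO livers, against 14.69 and 12.74 in control livers. Both DKO arrays lay below both controls, and both pairs spread widely (SD 0.79 in DKO livers and 1.38 in control livers, n = 2 each). The change of -2.60 (SE 0.68) did not pass (adjusted p = 0.108). It passed when DKO replicate 1 was left out (-3.16, adjusted p = 0.00537) or when control replicate 2 was (-3.57, adjusted p = 0.0407), and was -1.62 (adjusted p = 0.331) without control replicate 1, so single arrays decided the call. Serpina3b was at 5.20 and 5.39 in DKO livers, where it was not detected, against 5.54 and 5.86 in control livers. Its change of -0.40 (SE 0.34, adjusted p = 0.676) was -0.24 without control replicate 2, so no smallest fold is given. The Serpina3 probes share the limit on paralogs given for alpha-1-antitrypsin, as 12 further Serpina3 genes of the cluster had no named probe.

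The serpins that carry hormones in plasma do not inhibit proteases, and neither of the pair tested was called. Corticosteroid-binding globulin (Serpina6) was at 9.37 and 8.94 in DKO livers, against 7.07 and 8.89 in control livers. Control replicate 1 stood low, while control replicate 2 was nearly equal to DKO replicate 2. Its change of 1.17 (SE 0.59, adjusted p = 0.43) became 0.26 with control replicate 1 left out and 2.08 with control replicate 2 left out. Thyroxine-binding globulin (Serpina7) was at 11.13 and 10.56 in DKO livers and 11.13 and 10.95 in control livers, with overlapping groups (change -0.20, adjusted p = 0.882). Of the remaining clade A genes, Serpina11 and the pseudogene Serpina4-ps1 each had a change of -1.40 with separated groups (adjusted p = 0.238 and 0.196), the adipokine vaspin (Serpina12) had a change of -0.11 with overlapping groups that was 0.47 without control replicate 2, and Serpina9 was detected on no array.

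**Figure D3:**
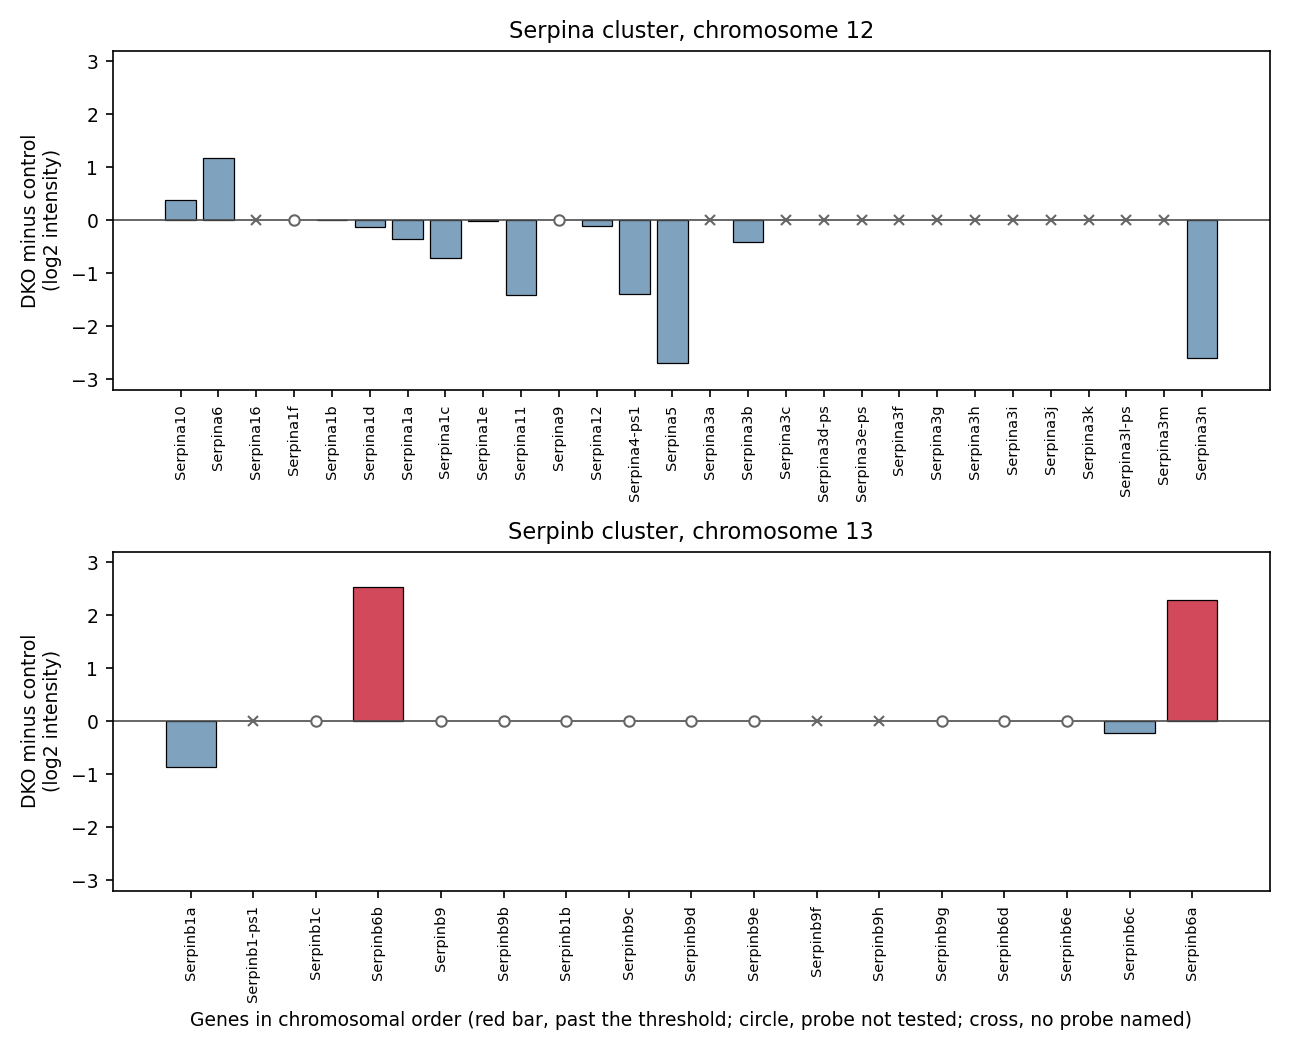
Change of each gene (y axis, DKO minus control in log2 intensity) in chromosomal order for the Serpina cluster of chromosome 12 (above) and the Serpinb cluster of chromosome 13 (below); red bars passed the adjusted threshold, blue bars did not, circles mark genes whose probe was not tested and crosses genes with no named probe. The 2 red bars, Serpinb6b and Serpinb6a, stand near opposite ends of the lower cluster with untested genes between them, and 10 of 13 tested genes of the upper cluster have negative bars.

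Serpin genes lie in clusters, and the changes were read along them. The order is that among Serpin genes in the RefSeq annotation, and whether other genes lie between them was not read. On chromosome 12, 28 Serpina genes are annotated, 15 had a named probe and 13 were tested, with 10 negative and 3 positive changes. The positive changes were those of Serpina10 and Serpina6, the first genes of the cluster, and Serpina1b, whose change of 0.014 was far smaller than its SE of 0.33. On chromosome 13, 17 Serpinb genes are annotated, 14 had a named probe and 4 were tested. Serpinb6b is the 4th and Serpinb6a the 17th gene of that row. Serpinb6c, the Serpin gene next to Serpinb6a in that row, was at 5.95 and 5.23 in DKO livers and 5.37 and 6.26 in control livers. Its groups overlapped near the detection limit (change -0.23, adjusted p = 0.891), and its change was 0.22 when control replicate 2 was left out. On chromosome 1, 11 of 12 Serpinb genes had a named probe, and the 2 tested, Serpinb2 and Serpinb10, had negative changes. At the adjusted threshold, 0 genes of the chromosome 12 and chromosome 1 clusters and 2 of the chromosome 13 cluster were called.

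Clade B held both called genes. Serpinb6a, the mouse counterpart of human SERPINB6, is an intracellular inhibitor of cathepsin G and of trypsin-like proteases. Its level was 12.60 and 13.02 in DKO livers, against 10.08 and 10.96 in control livers, from deposited intensities of 6251 and 8454 in DKO livers and 1393 and 1977 in control livers. Both DKO arrays exceeded both controls by more than the spread within either pair. The rise was 2.28 (SE 0.42), or 4.87-fold, with an adjusted p of 0.0331 in limma. Serpinb6b, a rodent paralog that inhibits mouse granzyme A, was at 10.48 and 10.23 in DKO livers, against 8.14 and 7.49 in control livers, from intensities of 1573 and 1303 in DKO livers and 474 and 314 in control livers. Its groups did not overlap either, and the rise was 2.54 (SE 0.38), or 5.81-fold (adjusted p = 0.0151). Without control replicate 2, Serpinb6a kept its call (2.72, adjusted p = 0.0445) and Serpinb6b did not (2.21, adjusted p = 0.0796). Without control replicate 1, Serpinb6a lost its call (1.85, adjusted p = 0.165) and Serpinb6b passed (2.86, adjusted p = 0.0462), and without DKO replicate 2 Serpinb6a also missed it (2.07, adjusted p = 0.0566).

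Both genes were higher together, so their promoter windows are printed, in RefSeq sequence of GRCm38.p6. Capitals mark the motif bound by TEAD factors, the partners of YAP and TAZ (GGAATG, or CATTCC on the other strand).
Serpinb6a, chr13:34002745-34003044, minus strand: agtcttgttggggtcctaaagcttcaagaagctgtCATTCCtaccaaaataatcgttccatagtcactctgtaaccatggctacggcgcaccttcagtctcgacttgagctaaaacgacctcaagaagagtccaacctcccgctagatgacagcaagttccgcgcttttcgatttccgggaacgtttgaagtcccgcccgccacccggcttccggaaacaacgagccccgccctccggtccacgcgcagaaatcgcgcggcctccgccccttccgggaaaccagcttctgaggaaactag
Serpinb6b, chr13:32965011-32965310, plus strand: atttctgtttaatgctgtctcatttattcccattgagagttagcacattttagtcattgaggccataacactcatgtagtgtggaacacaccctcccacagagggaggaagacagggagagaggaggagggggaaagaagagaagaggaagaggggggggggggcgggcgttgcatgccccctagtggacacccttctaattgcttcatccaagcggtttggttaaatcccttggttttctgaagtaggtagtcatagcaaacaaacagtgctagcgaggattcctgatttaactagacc
The Serpinb6a window held 1 match, 215 bases before the start, and the Serpinb6b window none, and a second annotated start of Serpinb6a had none either. The motif was found in 13 of 63 Serpin windows (20.6%), beside 14.7% of all windows, so a match is common at this length and is a description of the letters only. Overlapping windows of Serpina7 are among the 13. The 2 windows printed were 44.1% identical. Whether the probe of either gene also binds transcripts of the other was not checked. A motif of AP-1 (TGANTCA) was in 12 of 63 Serpin windows (19.0%) and 7.81% of all windows. Among the 12 were the alike windows of Serpina1a to Serpina1d and overlapping windows of Serpinb2, so they are not separate sequences. The HNF4 motif CAAAGTCCA, with its reverse complement TGGACTTTG, was in 0 of 63 and 0.475% of all windows. Of the 49 genes with a named probe, 42 had a window.

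The other tested clade B genes were not called. Serpinb1a, which protects neutrophils from their own elastase, proteinase 3 and cathepsin G, was at 8.05 and 6.88 in DKO livers and 8.62 and 8.02 in control livers, with overlapping groups (change -0.86, SE 0.48, adjusted p = 0.487). Serpinb2, an intracellular serpin of macrophages, was not detected on either DKO array, at 5.30 and 5.50, against 5.54 and 6.19 in control livers. Its change of -0.47 (SE 0.37, adjusted p = 0.649) was -0.14 without control replicate 2, so no smallest fold is given. Serpinb10, a serpin of blood-forming cells, was at 5.61 and 5.20 in DKO livers, against 5.79 and 6.34 in control livers (change -0.65, adjusted p = 0.499). These 3 genes are known from blood cells, and none differed at the threshold. Of the 19 clade B genes not tested, 17 were detected on no array, among them the epithelial Serpinb5 (maspin), Serpinb3a and Serpinb3c (relatives of the human squamous cell carcinoma antigens), Serpinb7, Serpinb11 and Serpinb13, the furin inhibitor Serpinb8, and Serpinb9, the granzyme B inhibitor, with its paralogs Serpinb9b, Serpinb9c, Serpinb9d, Serpinb9e and Serpinb9g. Serpinb1b, Serpinb1c, Serpinb6d and Serpinb6e were likewise undetected. Serpinb12 was detected on 1 control array and Serpinb3d on 1 DKO array.

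Cell type markers were set beside the clade B pair, and their part in it was not tested. Biliary markers were higher, as given above. All 5 tested erythroid markers had negative changes with 0 called (median -1.07), and their summed intensity was 36088 and 35325 in DKO livers, against 71368 and 75469 in control livers, with no overlap. Macrophage markers had changes in both directions (5 tested, 0 called, median 0.36), with summed intensities of 6266 and 6382 in DKO livers and 7083 and 5865 in control livers. All 6 tested megakaryocyte and platelet markers had negative changes with 0 called, and their sums overlapped (8911 and 5444 in DKO livers, 7829 and 13735 in control livers). All 8 granulocyte markers had negative changes with 0 called (median -0.45). Without control replicate 2 the platelet and granulocyte medians turned to 0.036 and 0.085, and the erythroid median was -1.26. Of the stratified epithelial markers, Sfn, also a gene of simple epithelium, was at 6.88 and 7.26 in DKO livers, against 4.87 and 4.77 in control livers where it was not detected, at least 2.77-fold higher (adjusted p = 0.017, and 0.0866 without control replicate 2). Krt14 was at 6.74 and 6.58 in DKO livers, against 7.03 and 7.03 in control livers (change -0.37, adjusted p = 0.7), and the defining Krt5, Krt6a, Trp63 and Dsg3 were not tested. Targets of clade B serpins were measured too: of 4 tested granule and leukocyte proteases 0 were called, and cathepsin G (Ctsg) was at 10.55 and 10.17 in DKO livers and 9.91 and 10.89 in control livers, with overlapping groups. Of 7 cysteine cathepsins 0 were called (median -0.49), and of 5 tested epithelial membrane proteases 0 were called (median 0.94).

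Protease inhibitors that are not serpins, and plasma proteins listed with them such as Hrg and Itih1 to Itih4, gave a comparison outside the superfamily. Of 22 tested, 2 were higher and 3 lower, with a median of 0.38. Wfdc2, a small secreted inhibitor of epithelia, was at 10.60 and 11.70 in DKO livers, against 5.48 and 7.82 in control livers (change 4.50, adjusted p = 0.0233), and Timp3, which inhibits matrix metalloproteases, rose by 1.75 (adjusted p = 0.0448). The falls were Hrg (-2.85, adjusted p = 0.00722), Fetub (-1.69, adjusted p = 0.0477) and Mug1, which was at least 5.37-fold lower (adjusted p = 0.0103). Hrg, Fetub and Mug1 are plasma proteins made by hepatocytes. Without control replicate 2, Wfdc2, Hrg and Mug1 kept their calls (adjusted p = 0.0134, 0.0378 and 0.0152), Timp3 and Fetub did not (0.131 and 0.163), and Spink1 was called higher (2.71, adjusted p = 0.0407).

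The remaining clades were small. Serpinh1 (HSP47), the chaperone of procollagen, was at 8.14 and 8.40 in DKO livers, against 6.87 and 6.85 in control livers. The groups were separated by far more than the spread within each, and the change of 1.41 (SE 0.33) did not pass over all probes (adjusted p = 0.0828, and 0.239 without control replicate 2). Fibroblast and stellate markers, among them the collagen genes Col1a1, Col1a2 and Col3a1, had 0 calls and a median of -0.41, with 6 of 7 changes negative. Collagen genes outside that list had changes of both signs, among them Col4a2 (1.07) and Col18a1 (-0.98). Serpini1 (neuroserpin) and Serpini2 were detected on no array. Agt, a serpin by fold that the naming rule leaves out and the precursor of angiotensin, was at 11.73 and 11.27 in DKO livers, against 12.22 and 11.98 in control livers (change -0.60, adjusted p = 0.517).

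**Figure D4:**
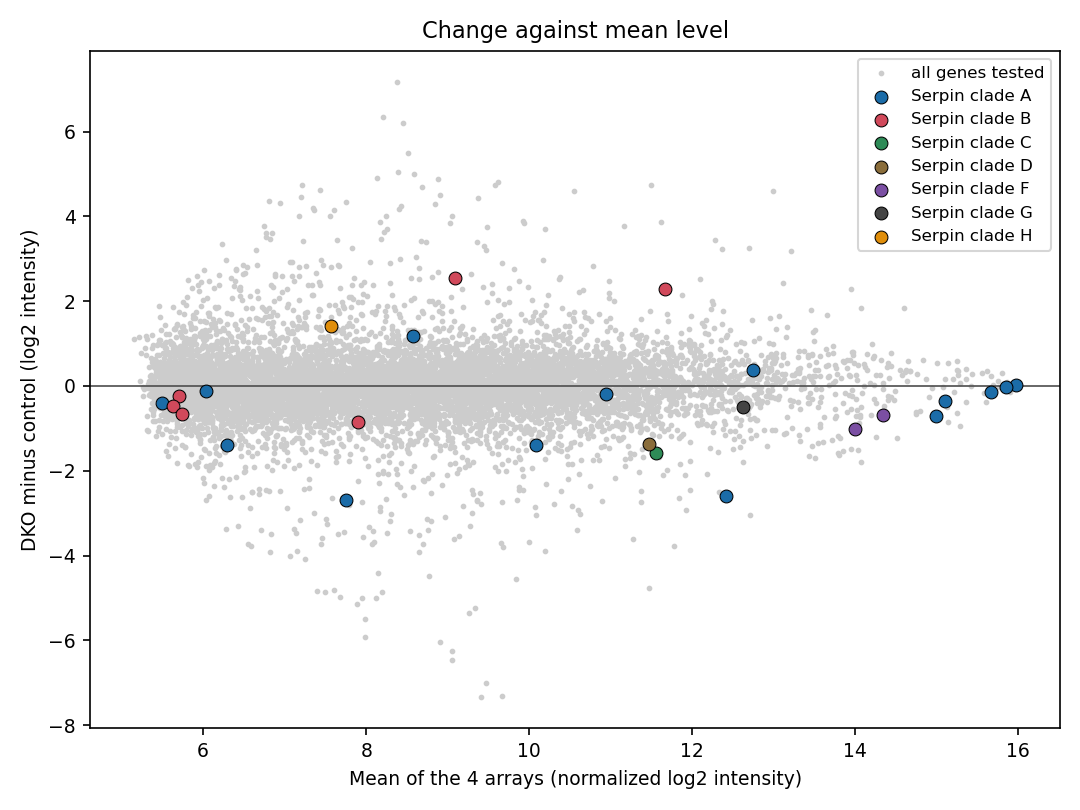
Change (y axis, DKO minus control in log2 intensity) against the mean of the 4 arrays (x axis, normalized log2 intensity) for all 9502 genes tested (grey) and the Serpin genes by clade (colour). The clade B pair lies at 2.28 and 2.54, within the range of all genes but above their 95th percentile of 1.22, and most clade A, C, D, F and G points lie below 0. The Serpina1 points at the far right run from -0.71 (Serpina1c) to 0.014 (Serpina1b).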

How the data were processed

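Biotin-labelled liver RNA was measured on bead arrays (MouseRef-8 v2.0, Illumina). The authors deposited a table of unnormalized linear intensity and a detection p-value for every probe. A second table, the authors' normalized intensity, served as an alternative, and how it was normalized is not stated in the labels, the methods or the file. Groups and replicate numbers came from the sample titles.

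Background was corrected in limma 3.58.1 (R 4.3.3) by normexp (offset 16), where the detection p-values gave the level of the negative controls. Arrays were then quantile normalized and log2 transformed. Probes detected (p under 0.05) on at least 2 arrays were tested (13654 probes, 9502 genes) with lmFit and eBayes, two-sided, and p-values were adjusted by Benjamini-Hochberg across these probes at 0.05. Lists received counts and medians, with no test. Clade E is not reported here. All 49 Serpin genes matched the RefSeq table (GRCm38.p6) by Entrez identifier, out of 69 Serpin genes in it. Promoter windows and motifs were read from RefSeq sequence with pandas 2.3.3 and Biopython 1.88. For a probe that no array of a group detected, "at least N-fold", where given, compared the other group's mean with a floor and took no account of the SE. The floor averaged, over the undetected arrays, the probe's own level or the lowest level of any detected probe, whichever was higher. Named were every called Serpin gene, the highest and lowest tested member of each clade, the Serpina1 and Serpina3 paralogs, further members and genes of the lists.

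The fit was tested on simulated data. Members and lists were chosen with earlier results of these data known. Alternatives covered background correction, offset, normalization, the filter, the authors' values, a block for the replicate number, leaving out each array, another variance model, the methods' t-test and the mean of a gene's probes. The list genes without control replicate 2 were an alternative chosen after seeing the data.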

Additional observations from a re-analysis of the deposited data

How the results depend on the processing

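The 2 Serpin genes called higher became 1 without background correction, with the authors' values and by the methods' t-test unadjusted (which pairs arrays by replicate number), and 0 without the filter on dim probes or by that t-test after Benjamini-Hochberg adjustment. With single arrays left out the count was 1 to 2. The 0 called lower became 1 without background correction (Serpinc1), with an offset of 50 (Serpinc1), with median scaling (Serpina5), with the authors' values (Serpinc1) and with trended, robust eBayes (Serpinc1), 2 with the mean of a gene's probes (Serpina5 and Serpinc1), 3 by the same unadjusted paired t-test (Serpinc1, Serpind1 and Serpinf1), and 0 to 4 with single arrays left out. With the replicate number as a block, 7 were lower, beside 7.07% of all genes, and 3 higher, beside 7.16%, the added rise being Serpinh1. The other counts of this paragraph have no share of all genes beside them, so they cannot be read as results about the Serpin genes. An unadjusted threshold also passes more genes than an adjusted one. Same-numbered arrays deviated together (r = 0.54 over 13654 probes), but the labels do not pair the 2 numbers, so they are only shared numbers, and the block and the paired t-test rest on a pairing the labels do not give. The hepatocyte clade median of -0.50 stayed negative under every alternative run. The clade B median of -0.35 was 2.28 over the genes detected on all 4 arrays, where dim genes drop out, and -0.62 to 0.039 with single arrays left out. Of 408 alternatives of the 26 tested genes, 398 kept the sign. Median scaling put Serpina1b (0.014) at -0.083 and the mean of probes at -0.075. With single arrays left out, Serpina1b ran from -0.024 to 0.052, Serpina1e (-0.016) from -0.083 to 0.051, Serpina7 (-0.20) from -0.48 to 0.086, Serpina12 (-0.11) from -0.69 to 0.47 and Serpinb6c (-0.23) from -0.68 to 0.22. The cause was not tested.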
